A study of Mus musculus with 6 samples.

Results

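The Kruppel-like transcription factors described here are 10 genes, Klf2, Klf3, Klf4, Klf5, Klf6, Klf7, Klf9, Klf10, Klf11 and Klf13, out of 17145 genes tested. They were taken by name: a probe set belonged to the group if its single symbol in the platform annotation was one of these names, and each of the 10 genes had 1 such probe set. RNA came from mouse NIH/3T3 fibroblasts, an immortalized embryonic fibroblast line, which had been stably transfected with HA-tagged mouse RPB1, the polymerase II subunit that carries the C-terminal repeats. In the wild type group (3 arrays) this RPB1 was unchanged, and in the 8KR group (3 arrays) the lysines at position 7 of its C-terminal repeats had been replaced by arginine, which cannot be acetylated. Both groups grew in medium with 10% bovine calf serum and 2 µg per ml of α-amanitin, which inhibits the cell's own polymerase II. Each group is called biological replicates by its labels. Their origin, from separate transfections or a shared population, is a point not given in the sources used here. If they shared a population, p-values measure only the spread between these samples. The question addressed was which of these factors differed in expression when the tail of RPB1 could not be acetylated.

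Kruppel-like factors are DNA-binding proteins with a row of zinc fingers at the carboxyl end, which reads GC-rich sites known as GC boxes and CACCC boxes. They differ in the part before the fingers. Klf2, Klf4, Klf5, Klf6 and Klf7 mainly activate transcription and recruit acetyltransferases such as Ep300, the enzyme that also acetylates the RPB1 tail. Klf3 binds the corepressor CtBP, and Klf9, Klf10, Klf11 and Klf13 bind the corepressor Sin3. In fibroblasts several of them are early response genes: Klf6 and Klf10 are in both of the study's lists of genes induced by epidermal growth factor (EGF) and by platelet-derived growth factor (PDGF), and Klf2 is in the EGF list.

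All values are log2 intensities as the authors normalized them, and all differences are 8KR minus wild type on that scale. They were tested with limma over all 28543 probe sets in which at least 1 group had a mean above 3.0, with Benjamini-Hochberg adjustment, and a gene passed at an adjusted p under 0.05. Median intensities of the 6 arrays lay between 4.49 and 4.54, and the members' wild type means ran from 5.38 to 8.07, so all 10 lay above the filter. Correlations between arrays were 0.982 to 0.984 within groups and at most 0.978 between them. Polr2a, which encodes RPB1, lay at 12.10, 12.11 and 12.09 in wild type and at 12.12, 12.13 and 12.13 in 8KR (adjusted p = 0.860 from limma). Its probe set was not used to tell wild type from 8KR transcripts. Of 10 fibroblast markers 9 were tested and Fap lay below the filter. Of those 9, 2 fell (P4ha1 by 0.59 and Col3a1 by 0.52) and none rose, where 3.06% of all genes passed lower. All 4 markers at an unadjusted p under 0.05 were lower, where 21.8% of all genes reached such a p in either direction. The 8KR arrays lay below all wild type arrays for 6 of the 9, and for 2517 of all 17145 genes. The 8KR arrays lay above all wild type arrays for 1 of the 9, Fn1 (0.09), and for 2569 of all genes. The groups overlapped for Vim (0.03) and Thy1 (-0.02). With an intensity trend 4 of the 9 markers passed, all lower, where 8.91% of all genes passed. With any 1 array left out, the replicate block or an ordinary linear model none passed (3 or 4 at an unadjusted p under 0.05). Their summed linear intensity was 16074 to 16580 in wild type and 15347 to 15595 in 8KR. No endothelial, epithelial or macrophage marker passed in limma (at an unadjusted p under 0.05, 1 of 6, 1 of 8 and 0 of 4 tested), with Kdr, Emcn, Ptprc and Adgre1 below the filter. The endothelial sum was 91.4 to 101 in wild type and 94.4 to 103 in 8KR, the epithelial sum 169 to 187 and 167 to 183, and the macrophage sum 66.7 to 88.9 and 70.1 to 78.5. The part of the fibroblast marker shift in the differences below was not tested, and in such bulk RNA fewer cells of a type cannot be told apart from less RNA per cell.

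The promoters of Klf6, the member that passed, of its close relative Klf7 and of Klf11 are shown because the first lay higher, the second lower and the third higher in 8KR cells. The sequences are RefSeq's (build GRCm38.p6), run 5′ to 3′ in the direction of the gene, and hold the 250 bases before the annotated start. Klf6 lies at chr13:5861239-5861488 on the plus strand, Klf7 at chr1:64121390-64121639 on the minus strand and Klf11 at chr12:24651121-24651370 on the plus strand. Capitals mark GC boxes, which were searched as GGGCGG. They also mark CACCC boxes and, in the same way, CCAAT boxes, for which the letters of the name were searched. All were searched on both strands, and a match on the other strand appears as its reverse complement.
Klf6: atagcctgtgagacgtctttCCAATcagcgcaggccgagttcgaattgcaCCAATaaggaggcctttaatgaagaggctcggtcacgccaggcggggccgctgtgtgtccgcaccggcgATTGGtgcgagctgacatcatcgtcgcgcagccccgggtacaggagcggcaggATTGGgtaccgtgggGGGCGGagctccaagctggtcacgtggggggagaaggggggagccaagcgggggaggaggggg
Klf7: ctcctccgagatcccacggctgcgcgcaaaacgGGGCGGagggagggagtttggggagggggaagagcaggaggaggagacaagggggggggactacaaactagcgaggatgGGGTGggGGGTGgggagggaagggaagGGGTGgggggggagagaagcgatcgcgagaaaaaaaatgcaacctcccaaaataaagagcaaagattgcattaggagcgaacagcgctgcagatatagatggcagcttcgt
Klf11: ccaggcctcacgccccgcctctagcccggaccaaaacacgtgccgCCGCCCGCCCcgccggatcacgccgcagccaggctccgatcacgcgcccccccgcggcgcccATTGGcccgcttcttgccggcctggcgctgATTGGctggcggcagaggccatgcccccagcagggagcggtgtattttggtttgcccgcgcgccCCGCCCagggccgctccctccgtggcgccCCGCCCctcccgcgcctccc

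The Klf6 window held 4 CCAAT boxes, 1 GC box and no CACCC box. The Klf7 window held no CCAAT box, 1 GC box and 3 CACCC boxes, and the Klf11 window held 2 CCAAT boxes and 4 GC boxes. Of the 10 members 8 had a window (Klf5 and Klf10 had no entry). A GC box was present in 7 of these 8, against 32.7% of all 32851 windows of the same length, a CACCC box in 5 against 52.0%, and a CCAAT box in 4 against 33.8%. None of the 8 held a TATA box (TATAAA, 12.4% of all windows) or a CArG box, the site of serum response factor (1.47% of all windows). GC and CACCC boxes overlapped each other once in the Klf3 and once in the Klf13 window. The windows were rich in G and C, with a median of 71.4% against 52.4% over all windows, and G- and C-rich motifs turn up more often in such sequence. These matches describe letters in a window and were not tested as binding sites.

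1 of the 10 genes passed, Klf6, which rose. Across all tested genes 5.39% passed, 2.33% higher and 3.06% lower, so 1 of 10 is near the background. None passed lower in limma (1 of the 10, Klf10, was lower at an unadjusted p under 0.05). At an unadjusted p under 0.05 there were 3 members, Klf6, Klf10 and Klf11, where the share over all genes was 21.8%. The arrays of the groups did not overlap for 5 members, with Klf2, Klf6 and Klf11 above and Klf7 and Klf10 below in 8KR, and such separation was seen for 29.7% of all genes. The members' median difference was 0.04, against 0.01 over all genes. The median size of a difference, whatever its direction, was 0.18 for members and 0.14 over all genes.

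**Figure D1:**
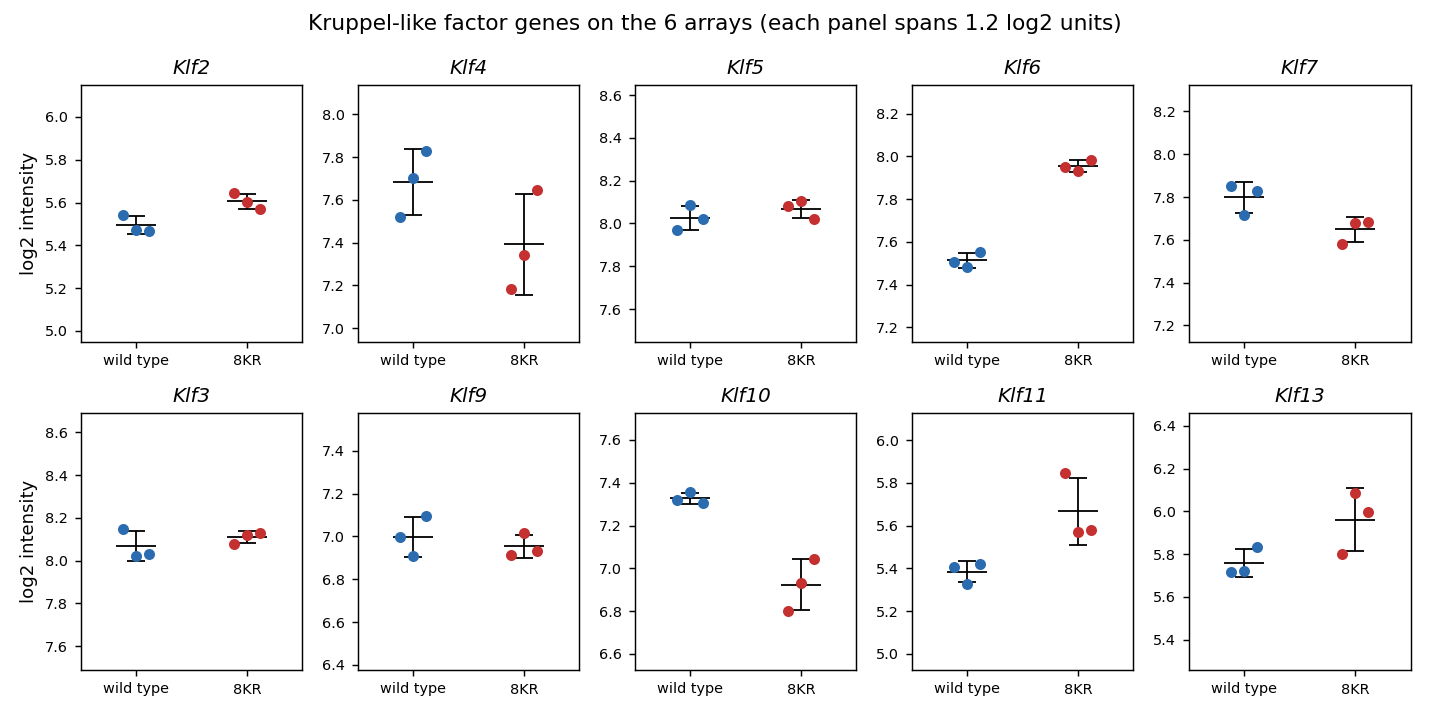
Log2 intensity (vertical axis) of the 10 genes, with a point for each of 3 wild type (blue) and 3 8KR (red) arrays in replicate order; black bars give mean and SD, and every panel spans the same range of log2 units. Klf6 shows the widest gap between groups, 0.38, Klf10 lies lower on all 8KR arrays, and the groups overlap for Klf3, Klf4, Klf5, Klf9 and Klf13.

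Among the activating members, Klf6, a widely expressed early response gene known for its induction by injury, lay at 7.51, 7.48 and 7.55 in wild type. In 8KR it lay at 7.95, 7.93 and 7.98, so that the lowest 8KR array stood 0.38 above the highest wild type array, where the arrays of a group spread over 0.07 in wild type and 0.05 in 8KR. The mean went from 7.51 ± 0.04 to 7.95 ± 0.03 (SD, n = 3 each), or 1.36-fold (difference 0.44, standard error 0.07, 95% interval 0.27 to 0.61, adjusted p = 0.0268 from limma). A larger difference was seen in 9.44% of all genes. The difference stayed between 0.41 and 0.46 under 17 alternatives, of which only new scaling, array weights or a left-out array could move it. The gene no longer passed when any 1 of the 6 arrays was left out (adjusted p between 0.0798 and 0.0957 from limma).

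Klf7, the nearest relative of Klf6 and known for its part in axon growth, had the opposite sign. It lay at 7.85, 7.72 and 7.83 in wild type and at 7.58, 7.68 and 7.68 in 8KR. The groups did not overlap, but only 0.03 lay between them. The difference of -0.15 (standard error 0.08, 95% interval -0.34 to 0.04) did not pass (adjusted p = 0.360 from limma).

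Klf4, one of the factors that reprogram fibroblasts to stem cells, was the most variable member. Its values were 7.52, 7.70 and 7.83 in wild type and 7.18, 7.34 and 7.65 in 8KR. The highest 8KR array reached into the wild type range, and the SD was 0.15 in wild type and 0.24 in 8KR, against medians of 0.12 and 0.12 over all genes. The difference of -0.29 did not pass (95% interval -0.65 to 0.07 and adjusted p = 0.345 from limma), and a fall as large as 1.57-fold lay within its interval. Single arrays moved the value, to -0.19 without 8KR replicate 1 and to -0.42 without 8KR replicate 3. Klf4 rose with the replicate number in both groups. With replicate number as a block its standard error went from 0.15 to 0.09. It did not pass there either (unadjusted p = 0.0287 and adjusted p = 0.221, both from limma).

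Klf2, a factor of quiescent endothelium that is closely related to Klf4, lay at 5.54, 5.47 and 5.47 in wild type and at 5.64, 5.60 and 5.57 in 8KR. All 8KR arrays were higher, by a margin of 0.03. The difference was 0.11 (95% interval -0.06 to 0.28, adjusted p = 0.452 from limma). Klf5, which promotes the growth of epithelial and smooth muscle cells, lay at 7.97, 8.08 and 8.02 in wild type and at 8.08, 8.10 and 8.02 in 8KR. Its groups overlapped, and its difference of 0.04 had a 95% interval of -0.13 to 0.22, so a change of more than 1.17-fold either way lay outside that interval. The difference was 0.02 without wild type replicate 1 and 0.07 without wild type replicate 2.

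Klf3, the CtBP-binding repressor among the members, lay at 8.15, 8.02 and 8.03 in wild type and at 8.08, 8.12 and 8.13 in 8KR. The highest wild type array lay above every 8KR array. The difference was 0.04 (95% interval -0.14 to 0.22, adjusted p = 0.810 from limma), which again leaves changes above 1.17-fold outside the interval. It was 0.08 without wild type replicate 1 and 0.02 without wild type replicate 2.

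Among the Sin3-binding members, Klf10, first described as an early gene induced by TGF-beta, came closest to the threshold without passing. It lay at 7.32, 7.36 and 7.30 in wild type and at 6.80, 6.93 and 7.04 in 8KR. All 8KR arrays were lower, by at least 0.26, and they spread over 0.24 where the wild type arrays spread over 0.05. The mean went from 7.33 ± 0.03 to 6.92 ± 0.12 (SD, n = 3 each; difference -0.40, standard error 0.09, 95% interval -0.61 to -0.19, adjusted p = 0.0636 from limma). Its call depended on the setting. Klf10 passed when a group mean above 5.0 was required (adjusted p = 0.0241), where all 10 members were tested, 2 of them passed and 17.6% of all genes passed. It also passed with an intensity trend in the variance (adjusted p = 0.0370 from limma), where 8.91% of all genes passed. Over probe sets with a single symbol it passed too (adjusted p = 0.0308, 9.55% of all genes). So it did with the mean of a gene's probe sets (adjusted p = 0.0287, 10.1% of all genes, both from limma). It did not pass in the other 13 alternatives. These included the replicate block (adjusted p = 0.163) and each left-out array (adjusted p between 0.0943 and 0.164, all from limma).

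**Figure D2:**
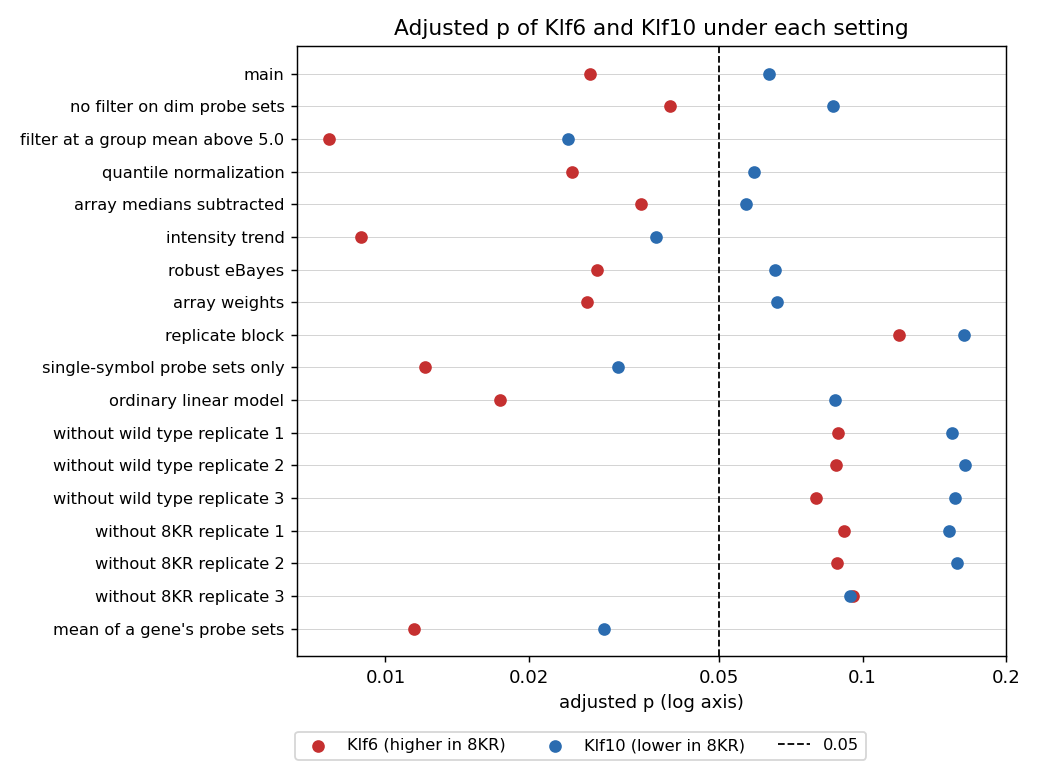
Adjusted p from limma (horizontal log axis) of Klf6 (red) and Klf10 (blue) in the analysis as reported, labelled main, and under each of 17 alternative settings (vertical axis), with the threshold of 0.05 as a dashed line. Klf6 lies left of the line in 10 alternatives and Klf10 in 4, and both lie right of it whenever an array is left out.

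Klf11, the second early gene of the TGF-beta response, moved opposite to Klf10. It lay at 5.41, 5.33 and 5.42 in wild type and at 5.85, 5.57 and 5.58 in 8KR. Every 8KR array was higher, and the first 8KR replicate stood out as the highest, as it was the lowest for Klf10. The difference of 0.28 (standard error 0.10, 95% interval 0.04 to 0.53) did not pass (adjusted p = 0.198 and unadjusted p = 0.0312, both from limma). Without that array it was 0.19.

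Klf13, known as an activator of the chemokine gene Ccl5 in T cells, lay at 5.718, 5.719 and 5.832 in wild type and at 5.801, 6.086 and 5.996 in 8KR. The lowest 8KR array lay inside the wild type range. The difference was 0.20 (95% interval -0.04 to 0.45, adjusted p = 0.329 from limma). Klf9, a target of thyroid hormone and glucocorticoids, lay at 6.997, 6.907 and 7.093 in wild type and at 6.914, 7.016 and 6.930 in 8KR. The groups overlapped, and the difference of -0.05 had a 95% interval of -0.25 to 0.16. It was -0.092 without wild type replicate 2 and 0.0014 without wild type replicate 3.

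Close relatives were compared within each array, which removes any scaling of whole arrays. The levels of 2 probe sets cannot be set against each other, so only the change of their difference between groups is read. For Klf6 and Klf7, and for Klf10 and Klf11, the single genes already lay apart in opposite directions. The lack of overlap in these pairs, and so their permutation result, followed from that. Their shifts only combine the differences given above. Klf6 minus Klf7 was -0.35, -0.24 and -0.28 in wild type and 0.37, 0.25 and 0.30 in 8KR, a shift of 0.59 with no overlap. Klf10 minus Klf11 was 1.91, 2.03 and 1.89 in wild type and 0.95, 1.36 and 1.46 in 8KR. That shift, -0.68, was the largest of the 4 pairs compared, and it ranged from -0.79 to -0.53 when single arrays were left out. Klf9 minus Klf13 went from 1.24 ± 0.05 to 0.99 ± 0.10 (SD, n = 3 each), a shift of -0.25 with no overlap. Klf2 minus Klf4 shifted by 0.40, from -2.19 ± 0.20 to -1.79 ± 0.27 (SD, n = 3 each), and its groups overlapped. The exact two-sided permutation test gave p = 0.10 for each of the 3 pairs without overlap, which is the smallest value that 3 against 3 arrays allow, and p = 0.20 for Klf2 and Klf4 (0.133 and 0.20 after adjustment over the 4 pairs). No pair could have passed in this design.

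**Figure D3:**
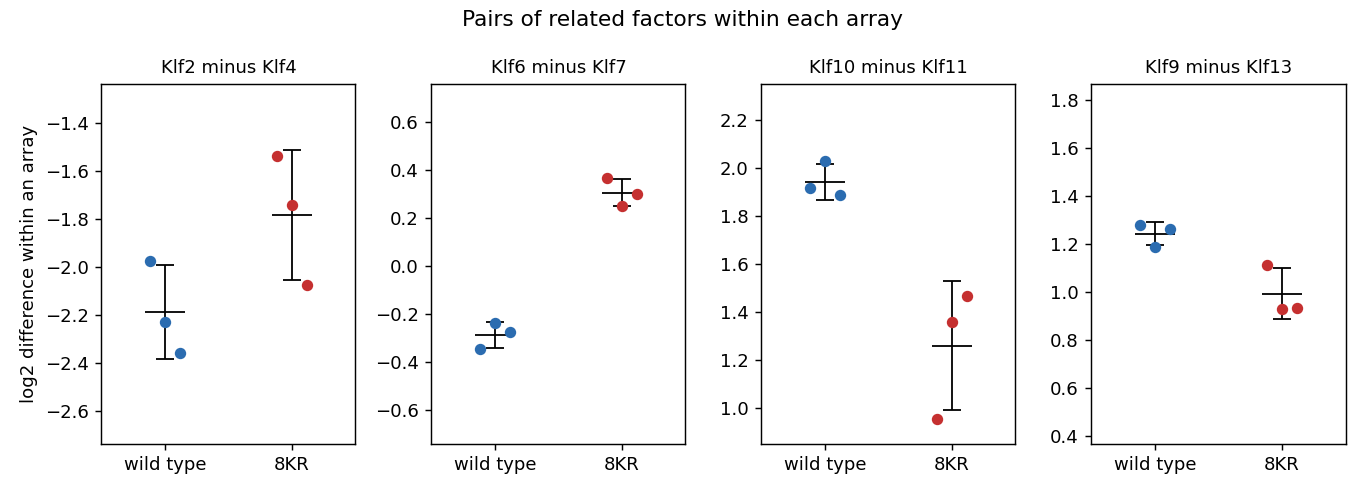
Difference in log2 intensity between 2 related genes within an array (vertical axis) for 4 pairs, with a point for each of 3 wild type (blue) and 3 8KR (red) arrays; black bars give mean and SD, and every panel spans the same range. The groups are apart for Klf6 minus Klf7, Klf10 minus Klf11 and Klf9 minus Klf13 and overlap for Klf2 minus Klf4.

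The rest of the zinc finger family gave no call. Of 17 other Kruppel-like and SP genes 14 were tested, and none passed in limma, with 1 at an unadjusted p under 0.05 and none called by an ordinary linear model. That gene, Sp4, a factor prominent in neurons, went from 4.04 ± 0.05 to 4.39 ± 0.23 (SD, n = 3 each; difference 0.35, adjusted p = 0.203 from limma). Both of its means lay under the lowest array median, 4.49. Klf16 (0.14), Sp1, the ubiquitous founder of the SP genes (-0.15), and Sp9 (-0.18) had the next smallest p. The median over the 14 genes was 0.06, and 8 of them had a wild type mean below the median of all array values. With an ordinary linear model 0 of the 14 reached an unadjusted p under 0.05. Klf8, which like Klf3 binds CtBP, had group means of 2.37 and 2.61, under the filter.

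**Figure D4:**
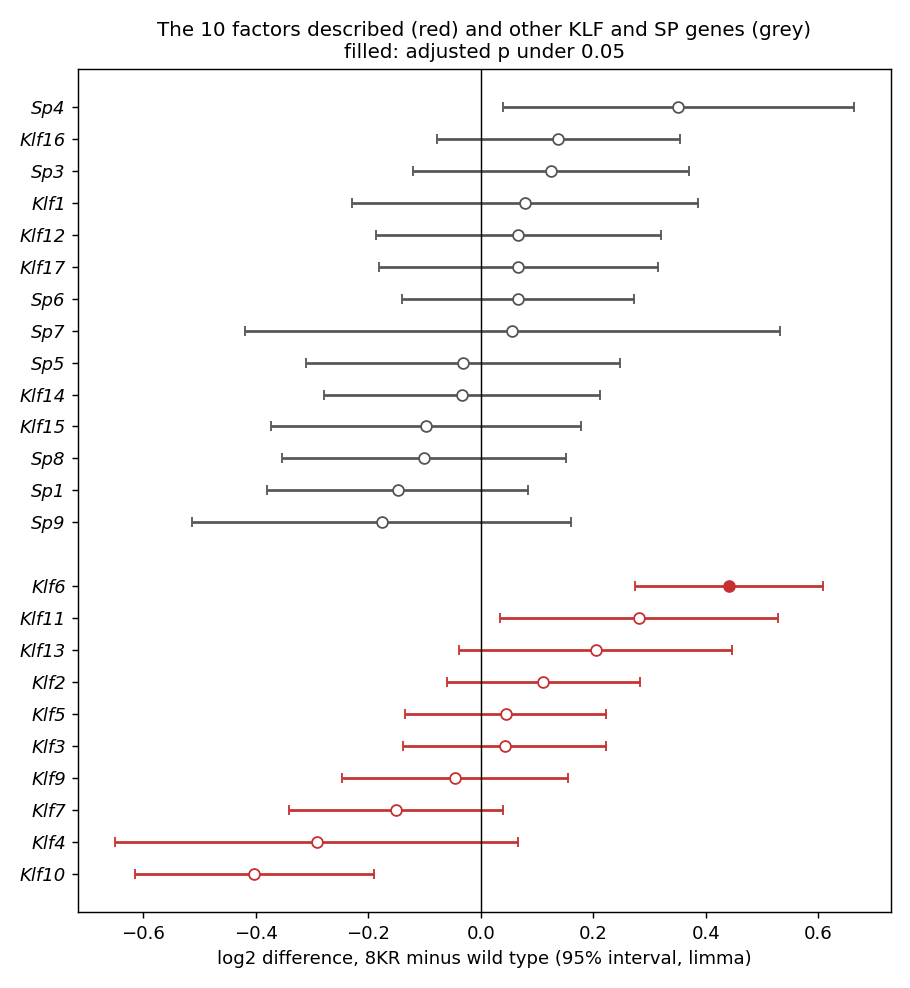
Log2 difference, 8KR minus wild type (horizontal axis), with its 95% interval from limma, for the 10 genes described (red) and 14 other Kruppel-like and SP genes (grey); filled points passed at an adjusted p under 0.05. Klf6 is the filled point, and the intervals of Klf6, Klf11, Klf10 and Sp4 lie off 0.

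No gene passed among the cofactors that Kruppel-like factors recruit. Of 16 such corepressors and coactivators 14 were tested. In limma 5 had an unadjusted p under 0.05, where the share over all genes was 21.8%, and an ordinary linear model called none. Sin3a, the scaffold of the Sin3 complex, had a difference of -0.32 (adjusted p = 0.119 from limma), and Ep300 had -0.29 (adjusted p = 0.126 from limma). The deacetylase gene Hdac3 had 0.42 and the histone methylation subunit gene Wdr5 0.32. The arrays of the groups did not overlap for 8 of the 14 genes, 4 above and 4 below in 8KR, against 29.7% of all genes. Among 11 ubiquitin ligase genes whose products are known to mark Kruppel-like factors for decay, none passed in limma or by an ordinary linear model. Fbxo32 (-0.19, unadjusted p of 0.0448 from limma), Btrc (-0.37), Siah2 (-0.15) and Siah1a (0.14) had the smallest p there.

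Genes that signal to Kruppel-like factor genes included 3 that fell. Of 26 receptors, TGF-beta pathway genes and transcription factors 25 were tested, 3 fell and none rose, where 5.39% of all genes passed and 3.06% passed lower. At an unadjusted p under 0.05, 4 were higher and 5 lower, where 21.8% of all genes reached such a p. Egfr, the EGF receptor, lay at 4.87, 4.94 and 5.18 in wild type and at 3.70, 4.19 and 3.81 in 8KR (difference -1.10, standard error 0.16, adjusted p = 0.0210 from limma). Pdgfra, a PDGF receptor, fell by 0.75 (adjusted p = 0.00785 from limma), and Mrtfa, an actin-regulated coactivator of serum response factor, fell by 0.58 (adjusted p = 0.0264 from limma). The 3 smallest p among the genes that did not pass belonged to Smad4 (0.45), Srf (0.55) and Smad2 (0.40), with adjusted p of 0.0523, 0.0548 and 0.0772 from limma. The 8KR arrays lay above all wild type arrays for these 3 genes. The groups did not overlap for 15 of the 25 genes, 7 above and 8 below in 8KR, against 29.7% of all genes. With the filter at 5.0, where Egfr was no longer tested, the list had 6 calls of 22 tested, 3 higher and 3 lower, beside 17.6% of all genes. With all 25 tested, the list had 3 higher and 3 lower over single-symbol probe sets, where 9.55% of all genes passed. With the mean of a gene's probe sets its counts were the same (10.1% of all genes). It had 2 higher and 4 lower with an intensity trend (8.91%), and 1 higher and 3 lower with quantile normalization (5.61%). An ordinary linear model kept 1 call, lower, so Egfr and Mrtfa were lost there, and with the replicate block the list had 0 in limma (7 at an unadjusted p under 0.05). With 1 array left out it had 1 or 2, Pdgfra in every case, Egfr without 8KR replicate 2 alone (adjusted p = 0.0319) and Mrtfa without wild type replicate 2 alone (adjusted p = 0.0452, both from limma).

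Of 32 genes often described as targets of Kruppel-like factors 23 were tested, 2 rose and 1 fell, where 5.39% of all genes passed. Smad7, an inhibitor of TGF-beta signaling whose promoter Klf10 is known to repress, lay at 6.17, 6.17 and 6.30 in wild type and at 6.85, 7.11 and 6.87 in 8KR (difference 0.73, standard error 0.10, adjusted p = 0.0184 from limma). Plau, a plasminogen activator gene that Klf6 is known to activate, lay at 7.19, 7.15 and 7.23 in wild type and at 7.62, 7.85 and 7.95 in 8KR (difference 0.62, adjusted p = 0.0326 from limma). S1pr1, a lipid receptor gene that Klf2 is known to activate, lay at 7.024, 6.800 and 6.997 in wild type and at 6.304, 6.008 and 6.408 in 8KR, and fell by 0.70 (adjusted p = 0.0433 from limma). No value here ties these genes to the factors. The median over the 23 genes was 0.04, and 20 did not pass, among them Acta2 (0.29) and Lgals3 (0.26). With 1 array left out the list had at most 1 call, Plau without 8KR replicate 1 (adjusted p = 0.0414 from limma), and adjusted p otherwise reached 0.0742 for Smad7, 0.108 for Plau and 0.132 for S1pr1. With the filter at 5.0 it had 5 calls of 18 tested, 4 higher and 1 lower, beside 17.6% of all genes. With an intensity trend it had 5 calls of 23 tested, 4 higher and 1 lower, beside 8.91% of all genes. The S1pr1 call was lost with no filter and with an ordinary linear model, where 2 genes passed, both higher, and all calls were lost with the replicate block (0 in limma, 5 at an unadjusted p under 0.05).

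**Figure D5:**
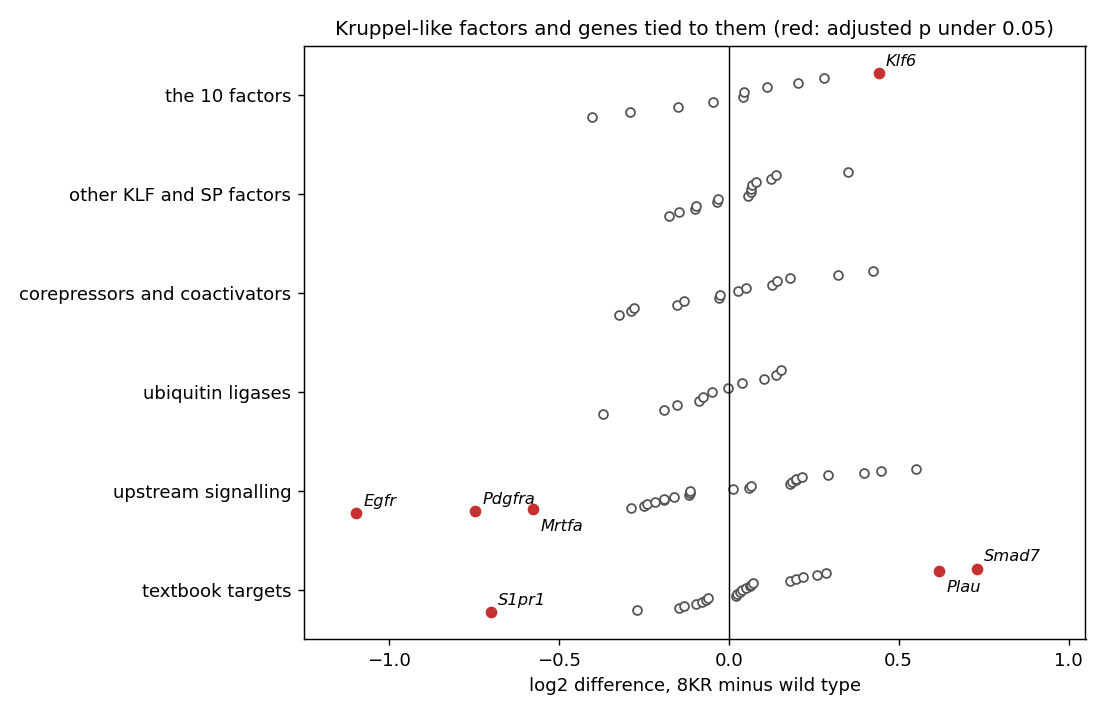
Log2 difference, 8KR minus wild type (horizontal axis), of every tested gene of 6 lists (rows), with 1 point per gene, sorted within a row, and genes with an adjusted p under 0.05 in red. Calls are Klf6 among the 10 factors, Egfr, Pdgfra and Mrtfa, all lower, among upstream genes, and S1pr1, lower, with Plau and Smad7, higher, among targets.

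Neighbouring genes were read from the RefSeq gene order, 3 tested genes on each side of a member. Of the 6 around Klf6 none passed. Pitrm1, next to it, had a difference of 0.39 (adjusted p = 0.0695 from limma) and Akr1e1, on its other side, -0.82 (adjusted p = 0.0552 from limma). Around Klf10, Azin1 fell by 0.41 (adjusted p = 0.0335) and Atp6v1c1 by 0.50 (adjusted p = 0.028, both from limma). The gene between Klf10 and Azin1 had -0.05. Over all 60 neighbours 2 rose and 2 fell, where 2.33% of all genes passed higher and 3.06% lower. Those that rose were Dis3 near Klf5, by 0.46 (adjusted p = 0.0264), and Fastkd2 near Klf7, by 0.53 (adjusted p = 0.0355, both from limma). Klf5 itself had a difference of 0.04 and Klf7 of -0.15. The median difference of the 60 neighbours was 0.03. The genes whose deviations from the wild type mean were most like those of Klf6 over the 6 arrays were Dis3, Mical2 and Marcksl1, which differed from it by a root mean square of 0.03 each, with differences of 0.46, 0.44 and 0.46.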

How the data were processed

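RNA of 6 samples was measured on Affymetrix Mouse Gene 1.0 ST arrays and grouped by the genotype in the sample titles. The deposited values are log2 intensities, which the authors normalized; the submitters' processing notes list Affymetrix Power Tools 1.12.0, with the method of normalization and the build not given in the sources used here. Arrays hold no read counts, so their number limits the precision.

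Of 35557 probe sets, 7014 in which neither group mean exceeded 3.0 were removed, as in the study's methods. The rest were fitted without covariates by lmFit and eBayes of limma 3.58.1 (R 4.3.3), adjusted by Benjamini-Hochberg, and the fit was tested on simulated data. A gene was represented by its brightest probe set over the 6 arrays. Symbols came from the platform annotation (21789 probe sets with 1 symbol, 1621 with several, 12147 with none) and were updated through Entrez identifiers with RefSeq's gene table (GRCm38.p6). Genes of the lists with no probe set of their own symbol were not analysed here. Members, lists and roles were chosen with earlier results of these data known. Genes were named as all members, all calls in a list and otherwise up to 4 with the smallest p, plus the 3 genes most like a called member; the markers and neighbours named besides were chosen after their values were seen. Alternatives covered filter, scaling, variance model, weights, block, single arrays and probe sets. Figures were drawn with matplotlib 3.10.9.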

Additional observations from a re-analysis of the deposited data

How the results depend on the processing

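Klf6 was the 1 member that passed, and the number of members that passed changed with the processing. It was 2, Klf6 higher and Klf10 lower, with the filter raised to 5.0, with an intensity trend, over single-symbol probe sets and with the mean of a gene's probe sets, where 1 was higher and 1 lower. It was 0 with the replicate block, with 4 members (Klf4, Klf6, Klf10 and Klf11) at an unadjusted p under 0.05 in limma. It was also 0 when each array was left out in turn, with 2 to 4 at an unadjusted p under 0.05. No member passed higher in those cases (0 of 10). In the other 6 alternatives 1 passed. The share of all genes at an unadjusted p under 0.05 was taken only in the main analysis, 21.8%. Over all genes 924 passed (5.39%), against 1737 of the 9883 tested with the higher filter (17.6%) and 1528 with the trend (8.91%). The count was 1638 over single-symbol probe sets (9.55%) and 1733 with mean probe sets (10.1%). It was 63 with the replicate block (0.367%) and 274 to 293 with 1 array left out (1.59% to 1.71%). Counted as probe sets, 1245 passed, against 2295, 2200, 827 with an ordinary linear model, 77 with the block and 368 to 406 with 1 array left out. The cause of these changes was not tested. Of the members' differences, Klf9 changed sign once, to 0.0014 without wild type replicate 3 (range with 1 array left out -0.092 to 0.0014), and the others kept theirs in all 17 alternatives. Only scaling, array weights and left-out arrays could move a difference. For members whose groups did not overlap, a left-out array could not reverse it. The 4 within-array shifts kept their direction in all 7 alternatives run for them. With 1 probe set per gene, taking the mean of probe sets changed nothing there. For the pairs without overlap, leaving out an array could not reverse the shift. Same-numbered samples did not deviate together (correlations of -0.011, 0.0086 and -0.00048), so the values gave no sign of pairing by number. These correlations cannot decide whether same-numbered samples were grown or processed together, because shared handling need not leave a shared deviation.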
